A study of Homo sapiens with 6 samples.

Results

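The axon guidance ligands and receptors of U251 cells were examined in RNA-seq libraries of 2 groups. The set was chosen by gene name among the protein-coding genes of the deposited table: semaphorins of classes 3 to 7, plexins, neuropilins, SLIT and ROBO genes, netrins with their receptors of the UNC5 and DCC families and neogenin, ephrins, and Eph receptors, with EPHA2 left out by the rule. It held 71 of the 19951 protein-coding genes, of which 37 encode ligands and 34 encode receptors. U251 is an established human glioblastoma line, and all results are for that single line in culture. The NC group (n = 3) received sterile deionized water as the vehicle and the TNF-α group (n = 3) received recombinant human TNF-α at 10 ng/mL, both for 24 h. The labels describe the 3 replicates of each group as independent.

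Axon guidance genes encode cues that steer growing axons and migrating cells, and the receptors that read them. Class 3 semaphorins are secreted and act through neuropilin and plexin complexes, while the other vertebrate semaphorins are bound to the membrane and mostly bind plexins directly. SLIT proteins repel cells through ROBO receptors, netrins attract through DCC and neogenin or repel through UNC5 receptors, and ephrins on a cell surface signal to and from Eph receptor tyrosine kinases on the neighbouring cell. In glioma these families are known for roles in cell migration, invasion and vessel growth.

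Before the results, the libraries themselves were compared. The reads in genes numbered between 31992167 and 37897044 per library. TNF-α replicates 2 and 3 differed in composition. Only 16.6% and 17.9% of their reads lay in genes over 8 kb, while this share was 28.8% to 29.1% in the NC group and in TNF-α replicate 1. GC content and gene length together accounted for 34.1% and 33.0% of the variance of the log2 ratios to the NC mean in these libraries and for 1.27% in TNF-α replicate 1. In NC replicates 1 to 3, each set against the other NC libraries, this share was 3.25%, 12.5% and 16.6%. The SD of the log2 ratios was 0.154 to 0.181 in the NC libraries and 0.301 in TNF-α replicate 1. It was 0.926 and 0.806 in TNF-α replicates 2 and 3. Results are therefore given for TNF-α replicate 1 and for replicates 2 and 3 separately as well as together. The markers of the treatment, NFKBIA, TNFAIP3, CXCL8, ICAM1 and BIRC3, were each higher in every TNF-α library than in any NC library. Their summed FPKM lay between 52.3 and 55.1 in the NC group and between 624 and 875 in the TNF-α group. Most of the latter sum was CXCL8, with 638, 418 and 548 FPKM in TNF-α replicates 1 to 3. TNFAIP3 had 57.6, 18.9 and 26.8 FPKM in these libraries. Of 10 glioma and astrocyte markers, 8 had a mean of at least 1 FPKM, with VIM the highest, S100B near 0 and AQP4 at 0. GFAP fell from between 7.10 and 9.47 FPKM in NC to between 1.58 and 2.60 FPKM after TNF-α (adjusted p = 0.0210 in limma). The other tested markers of this list did not pass and moved in both directions. The mean of VIM went from 343 to 753 FPKM and that of NES from 42.4 to 56.0 FPKM. CD44 had 135 and 138 FPKM, and SOX2, SOX9, SLC1A3 and FABP7 had lower means after TNF-α. Of 5 neuron markers 1 reached that level, SYT1. None of the oligodendrocyte, leukocyte or endothelial markers reached a mean of 1 FPKM over all 6 libraries, although CD14 had a mean of 1.09 FPKM in the TNF-α group, and MAG, MOG, PTPRC and CD3E were listed at 0.

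A total of 39 of the 71 guidance genes had at least 1 FPKM in at least 3 of the 6 libraries and were tested. After TNF-α, SEMA7A rose 3.0-fold and SEMA4B 1.87-fold, ROBO4 rose 4.36-fold from a low level, and NTN4 fell to 0.237 times its NC mean. The genes are a GPI-anchored semaphorin, a transmembrane semaphorin, the roundabout receptor known from blood vessels and a laminin-related netrin of basement membranes. These 4 genes passed an adjusted p of 0.05 in limma, where 1.01% of all 12136 tested genes passed. ROBO4 reached the filter through its TNF-α libraries alone, and without it 3 of 38 passed. NTN4 had 0.648 and 0.959 FPKM in TNF-α replicates 2 and 3 and reached the filter only with NC libraries. In such bulk libraries, fewer cells with a transcript and less of it per cell cannot be told apart. In all tested genes 0.717% passed as higher and 0.297% as lower. The median log2 fold change of the tested guidance genes was -0.24 and that of all tested genes 0.04. After correction for gene length the guidance median was -0.03 and after correction for GC content and length -0.21, with the median of all genes near 0 in both. By TNF-α replicate, the median log2 ratio to the NC mean was -0.03, -0.31 and -0.31 for the guidance genes and -0.01, 0.08 and 0.05 for all tested genes. All 4 calls were lost when any NC library, TNF-α replicate 2 or TNF-α replicate 3 was left out. Without TNF-α replicate 1, 30 guidance genes passed, where 79.4% of all tested genes passed.

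**Figure D1:**
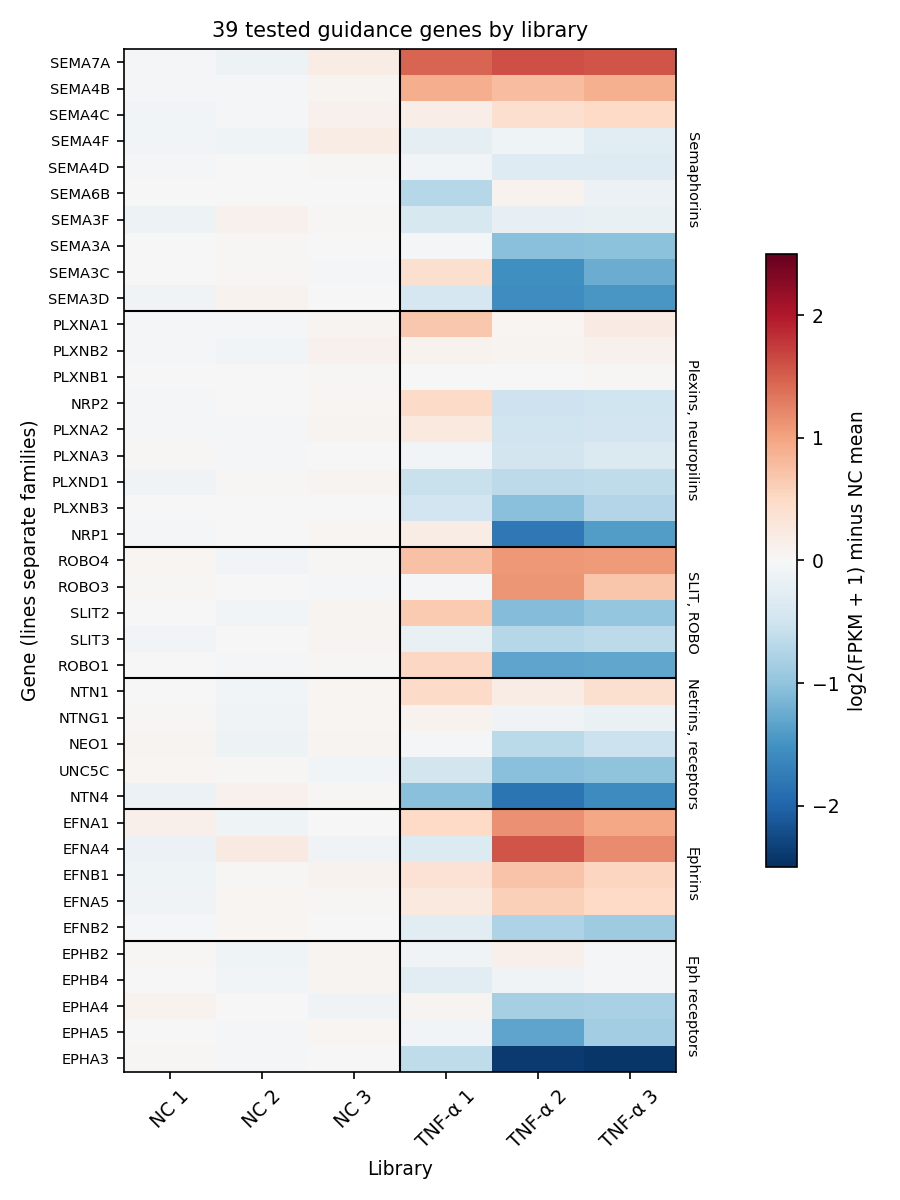
Each row is a tested guidance gene (39 in all, grouped by family and sorted by fold change), each column a library, and the colour is log2(FPKM + 1) minus the NC mean of the gene. SEMA7A and SEMA4B were raised in all 3 TNF-α libraries and NTN4 lowered in all 3, while SEMA3C, NRP1, NRP2, SLIT2, ROBO1 and PLXNA2 were above the NC mean in TNF-α replicate 1 and below it in replicates 2 and 3.

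The groups did not overlap for 21 of the 39 tested genes, 53.8%, beside 30.1% of all tested genes. In 8 of them all TNF-α libraries lay above all NC libraries (20.5%, beside 14.8% of all tested genes), namely SEMA7A, SEMA4B, SEMA4C, ROBO4, NTN1, EFNA1, EFNA5 and EFNB1. In another 13 all TNF-α libraries lay below (33.3%, beside 15.3%), namely SEMA3A, SEMA3D, SEMA3F, SEMA4D, PLXNA3, PLXNB3, PLXND1, SLIT3, NTN4, UNC5C, EFNB2, EPHA3 and EPHA5. At an unadjusted p under 0.05 there were 17 guidance genes, 43.6%, beside 24.2% of all tested genes. The log2 fold change was negative for 25 of the 39 (64.1%, beside 47.0% of all tested genes) and positive for 14 (35.9%, beside 53.0%). ROBO4 reached the filter through its TNF-α libraries alone and SEMA3F through its NC libraries alone. NTN4, SEMA3D, SEMA4D and EPHA5 were under 1 FPKM in TNF-α replicates 2 and 3 and reached it only with NC libraries. The place of these genes in the counts thus depends on the filter. An exact permutation test of a single gene could not have gone below p = 0.1 with 3 against 3 libraries, so the calls rest on the spread that limma shares across genes.

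The 250 bases before the transcript start are shown for the genes past the threshold, since TNF-α acts on many genes through NF-kB and AP-1 sites in promoters. RefSeq promoters on GRCh38.p14 were matched to 60 of the 71 genes, with 94 windows because several genes have more than 1 start. For each gene the window nearest to the deposited gene start was taken. SEMA7A (chr15:74433959-74434208, minus strand) ends at that start. The SEMA4B window (chr15:90184670-90184919, plus strand) lies 24.3 kb inside the gene, those of ROBO4 (chr11:124897866-124898115, minus strand) and NTN4 (chr12:95791156-95791405, minus strand) within 0.635 kb of the start. Capitals mark matches to the NF-kB consensus on either strand, and no other feature.
SEMA7A: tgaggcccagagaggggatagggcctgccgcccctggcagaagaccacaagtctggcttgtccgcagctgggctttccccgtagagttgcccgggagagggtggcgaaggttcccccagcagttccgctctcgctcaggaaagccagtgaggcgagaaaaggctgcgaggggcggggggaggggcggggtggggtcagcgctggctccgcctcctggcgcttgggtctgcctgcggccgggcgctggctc
SEMA4B: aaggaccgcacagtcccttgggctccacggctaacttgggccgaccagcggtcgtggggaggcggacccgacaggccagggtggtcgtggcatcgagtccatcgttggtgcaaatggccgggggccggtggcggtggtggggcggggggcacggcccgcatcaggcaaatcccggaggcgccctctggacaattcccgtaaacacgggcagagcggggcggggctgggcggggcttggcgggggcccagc
ROBO4: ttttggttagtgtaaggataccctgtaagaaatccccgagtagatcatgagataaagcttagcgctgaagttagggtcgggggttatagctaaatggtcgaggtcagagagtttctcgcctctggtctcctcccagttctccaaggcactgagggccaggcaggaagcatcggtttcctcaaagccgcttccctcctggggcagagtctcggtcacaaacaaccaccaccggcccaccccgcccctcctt
NTN4: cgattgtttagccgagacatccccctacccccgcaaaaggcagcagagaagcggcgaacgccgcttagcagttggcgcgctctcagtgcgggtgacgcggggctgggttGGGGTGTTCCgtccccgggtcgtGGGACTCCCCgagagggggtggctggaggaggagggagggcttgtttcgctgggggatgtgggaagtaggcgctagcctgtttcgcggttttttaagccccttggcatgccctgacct
NTN4, the gene that fell, was the only one of these 4 windows with a match, and it had 2, at -141 to -132 and -118 to -109 from the start. The consensus was found in 13 of the 94 guidance windows, 13.8%, and in 11.3% of the 22199 windows of protein-coding genes. The AP-1 site TGACTCA or its reverse complement TGAGTCA was found in none of the 94 and in 3.45% of the windows of protein-coding genes. A match is a run of letters and not a bound site, and further windows of NTN4 and SEMA4B, which are not shown, also held matches.

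In the NC group, 38 guidance genes had a mean of at least 1 FPKM and 14 of at least 10 FPKM. FPKM is a level per gene length, so that genes can be compared with each other. NRP2 had the highest NC level at 58.3 ± 1.75 FPKM (SD, n = 3), followed by PLXNB2 at 46.5 ± 3.20 FPKM. SLIT2 (38.8 ± 2.08 FPKM) and SEMA3C (38.7 ± 0.919 FPKM) came next, and their ranges overlapped. EPHB4, NRP1, PLXND1, SEMA7A, EPHA3, EFNB2 and SEMA3A followed between 28.9 and 20.4 FPKM. By family, the summed NC level was 201 ± 7.93 FPKM for plexins and neuropilins, 126 ± 3.65 for semaphorins, 63.5 ± 2.21 for Eph receptors, 52.2 ± 2.38 for SLIT and ROBO genes, 39.0 ± 1.99 for ephrins and 21.7 ± 0.577 for netrins and their receptors. The NC replicates were close to each other, with a median coefficient of variation of 4.95% over the 39 tested genes, against 25.9% in the TNF-α group. Over all tested genes these medians were 6.32% and 31.3%.

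**Figure D2:**
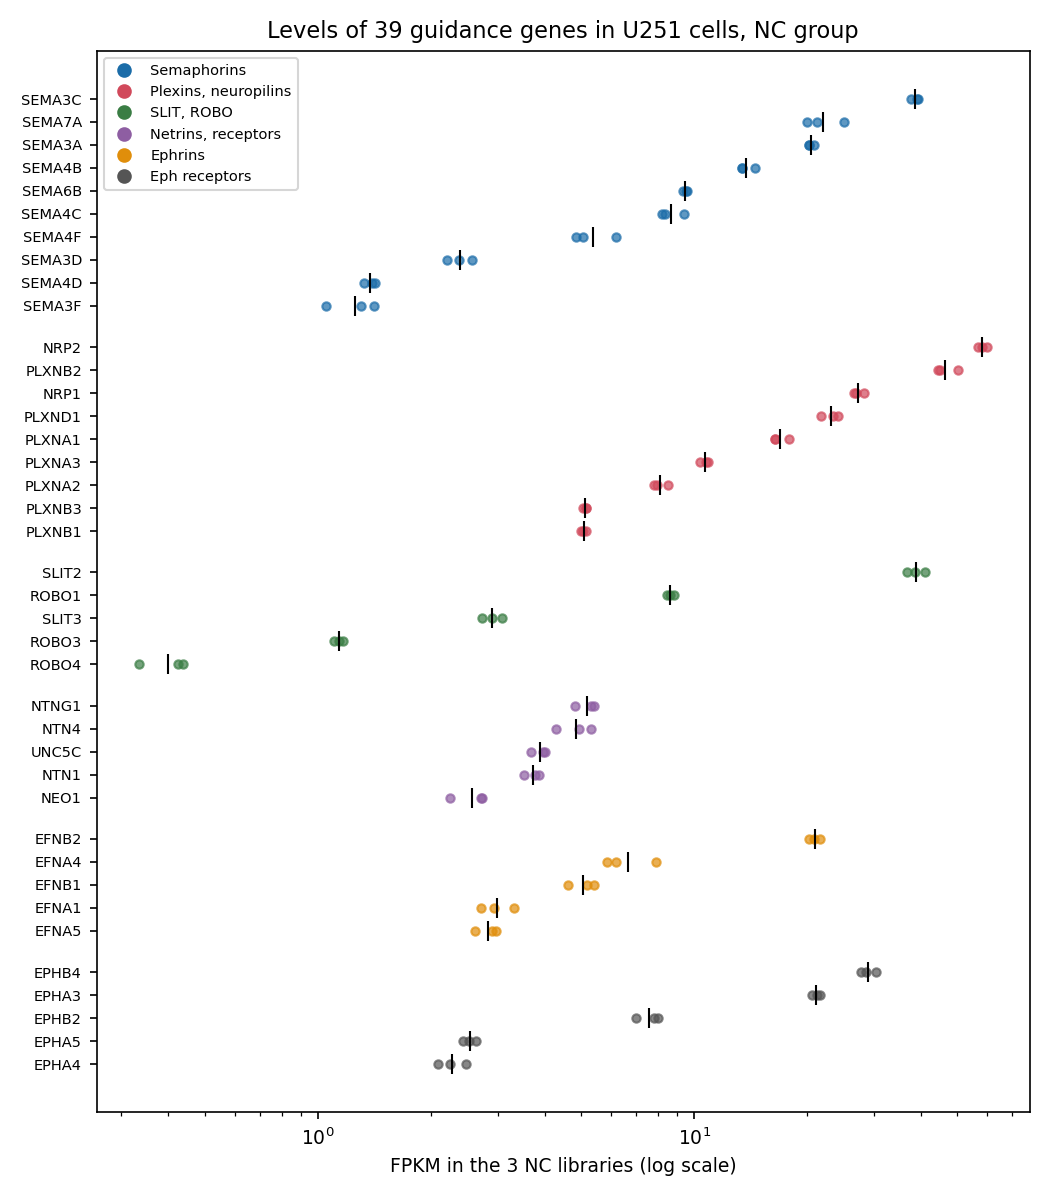
Points give the FPKM (log axis) of each of the 3 NC libraries and the bars the NC mean for the 39 tested guidance genes, grouped and coloured by family. NRP2 at 58.3 FPKM and PLXNB2 at 46.5 FPKM lead the order, and ROBO4 at 0.399 FPKM is the lowest.

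Semaphorins were the largest family, with 20 genes of which 10 were tested and 2 passed. SEMA7A (ENSG00000138623, chr15:74409289-74433958, minus strand) is anchored in the membrane and is known to bind plexin C1 and integrins. It had 21.2, 19.9 and 25 FPKM in NC and 62.2, 68.9 and 67.5 FPKM after TNF-α. The lowest TNF-α library was thus far above the highest NC library, and all TNF-α libraries were alike in FPKM. The log2 fold change was 1.55 (SE 0.15, 95% interval 1.20 to 1.90, adjusted p = 0.0112). With TNF-α replicate 1 alone it was 1.46. Without that replicate it was 1.59 (adjusted p = 1.39e-05), in a fit where 79.4% of all tested genes passed. Leaving out another library gave 1.48 to 1.64 and adjusted p from 0.0541 to 0.137. Its receptor PLXNC1, singled out after its values were seen, had 0.196, 0.0956 and 0.139 FPKM in NC and 0.205, 0.0507 and 0.137 FPKM after TNF-α and was not tested.

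**Figure D3:**
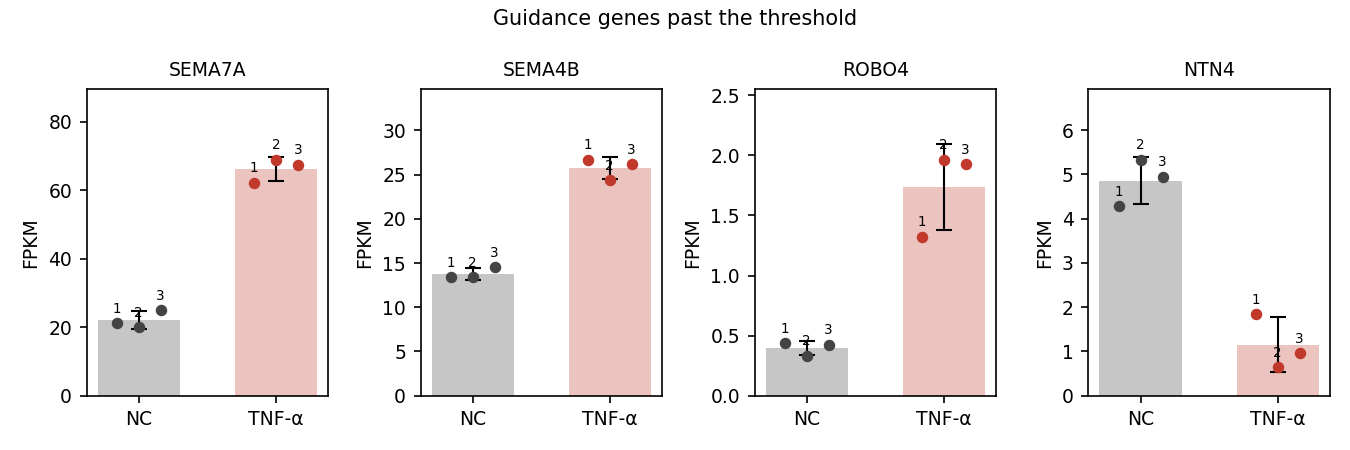
FPKM of the 4 guidance genes past the threshold, with points for the libraries (numbered by replicate), bars for the group mean and error bars for the SD (n = 3 per group). The groups do not overlap in any panel, and the TNF-α libraries of SEMA7A lie between 62.2 and 68.9 FPKM.

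SEMA4B (ENSG00000185033, chr15:90160604-90229679, plus strand) is a transmembrane semaphorin of class 4. Its NC libraries had 13.4, 13.4 and 14.5 FPKM and its TNF-α libraries 26.7, 24.3 and 26.1 FPKM. Every TNF-α library was above NC, again with little spread among them. The log2 fold change was 0.86 (SE 0.12, adjusted p = 0.0394), with 0.91 from TNF-α replicate 1 alone and 0.83 without it. SEMA4C, a ligand of plexin B2, had 8.20, 8.36 and 9.41 FPKM in NC and 9.89, 12 and 12.7 FPKM after TNF-α. These groups did not overlap, and the difference did not pass (log2 0.37, SE 0.14, adjusted p = 0.195).

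The secreted class 3 semaphorins behaved differently across the TNF-α libraries. SEMA3C, which acts through neuropilins and plexin D1, had 39.2, 39.3 and 37.7 FPKM in NC and 51.5, 12.8 and 15.8 FPKM after TNF-α. TNF-α replicate 1 was above and replicates 2 and 3 were below every NC library. SEMA3D had 2.20, 2.56 and 2.37 FPKM in NC and 1.51, 0.158 and 0.235 FPKM after TNF-α (log2 -1.14, SE 0.31, adjusted p = 0.185). The groups did not overlap, but the last 2 values rested on 33 and 46 reads. SEMA3A, the founding repellent of the class, had 20.1, 20.9 and 20.2 FPKM in NC and 19.9, 9.38 and 9.45 FPKM after TNF-α. The groups were separated, in TNF-α replicate 1 by a narrow margin. SEMA3F, SEMA4D, SEMA4F and SEMA6B had log2 fold changes from -0.26 to -0.21 and did not pass. SEMA6B, a transmembrane ligand of A-type plexins, had 5.39 FPKM in TNF-α replicate 1 and 10.2 and 8.48 FPKM in replicates 2 and 3, against 9.34 to 9.55 FPKM in NC.

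Of 11 plexins and neuropilins 9 were tested and none passed in limma or in limma-voom, with 2 (22.2%) below an unadjusted p of 0.05, beside 24.2% of all tested genes. PLXND1, a plexin known from vessel patterning, had 21.7, 23.4 and 24.1 FPKM in NC and 15.3, 14.3 and 14.4 FPKM after TNF-α. The TNF-α libraries were lower and close to each other, and the log2 fold change was -0.62 (SE 0.12, adjusted p = 0.101). It was -0.56 from TNF-α replicate 1 alone. PLXNB3, a receptor of SEMA5A, had 5.08, 5.14 and 5.14 FPKM in NC and 3.39, 1.95 and 2.70 FPKM after TNF-α (log2 -0.75, SE 0.17, adjusted p = 0.138). These groups did not overlap either. PLXNB3 shares 20.4% of its exon length with SRPK3 on the same strand, so that part of its reads is uncertain. PLXNA3 had 10.9, 10.3 and 10.8 FPKM in NC and 10.1, 7.54 and 8.11 FPKM after TNF-α (log2 -0.29, adjusted p = 0.197).

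PLXNB2, a receptor of class 4 semaphorins, had 44.9, 44.4 and 50.2 FPKM in NC and 49.6, 48.9 and 50.0 FPKM after TNF-α. The groups overlapped, and the 95% interval of its log2 fold change was -0.23 to 0.41. PLXNB1, the SEMA4D receptor, lay between 5.01 and 5.22 FPKM in all 6 libraries. NRP1 and NRP2 are co-receptors for class 3 semaphorins and for vascular endothelial growth factor. NRP1 had 26.6, 27.0 and 28.2 FPKM in NC and 31.0, 7.19 and 9.69 FPKM after TNF-α. NRP2 had 56.7, 58.1 and 60.1 FPKM in NC and 81.1, 40.2 and 41.0 FPKM after TNF-α. In both, TNF-α replicate 1 was the highest and replicates 2 and 3 the lowest of the libraries. The log2 fold changes were -1.0 (SE 0.49, adjusted p = 0.198) for NRP1 and -0.18 (SE 0.29, adjusted p = 0.626) for NRP2. PLXNA1 had 27.7 FPKM in TNF-α replicate 1 and 17.4 and 19.5 FPKM in replicates 2 and 3, against 16.4 to 17.8 FPKM in NC.

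Of 7 SLIT and ROBO genes 5 were tested, and ROBO4 passed. ROBO4 (ENSG00000154133, chr11:124883691-124898500, minus strand) had 0.437, 0.334 and 0.425 FPKM in NC and 1.32, 1.96 and 1.93 FPKM after TNF-α, from 77 to 111 and 299 to 358 reads. Every TNF-α library was higher, and the log2 fold change with the pseudocount of 1 was 0.96 (SE 0.14, adjusted p = 0.0462). TNF-α replicate 1 alone gave 0.73, and the libraries without it 1.08. Its NC values were all under 1 FPKM, so that it could not have been tested without being higher after TNF-α. It overlaps antisense genes over 16.9% of its exon length, and the use of strand in counting is not given in the sources used here. The endothelial markers PECAM1, VWF, CDH5 and CLDN5 summed to 0.190 to 0.209 FPKM in NC and 0.255 to 0.511 FPKM after TNF-α, with none of them reaching a mean of 1 FPKM, and their part in the ROBO4 result was not tested.

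SLIT2, a secreted repellent, had 38.7, 36.9 and 41.0 FPKM in NC and 61.6, 17.9 and 19.4 FPKM after TNF-α. Its main receptor ROBO1 had 8.64, 8.45 and 8.85 FPKM in NC and 12.9, 2.89 and 2.94 FPKM after TNF-α. Ligand and receptor thus showed the same split, above NC in TNF-α replicate 1 and below NC in replicates 2 and 3. This split was found in 12.1% of all tested genes. Neither passed (log2 -0.46, SE 0.46, adjusted p = 0.444 for SLIT2, and log2 -0.69, SE 0.50, adjusted p = 0.306 for ROBO1). SLIT3 had 2.72, 2.90 and 3.08 FPKM in NC and 2.45, 1.38 and 1.47 FPKM after TNF-α (log2 -0.52, SE 0.17, adjusted p = 0.195). ROBO3, known from commissural axons, had 1.17, 1.14 and 1.10 FPKM in NC and 1.09, 3.62 and 2.46 FPKM after TNF-α, so that replicates 2 and 3 alone were higher.

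Among the 12 netrins and netrin receptors 5 were tested, and NTN4 passed. NTN4 (ENSG00000074527, chr12:95657807-95791152, minus strand) had 4.28, 5.33 and 4.95 FPKM in NC and 1.85, 0.648 and 0.959 FPKM after TNF-α. Reads fell from 645 to 728 per NC library to 70 to 247 per TNF-α library, and the groups were well separated. The log2 fold change was -1.48 (SE 0.22, 95% interval -2.01 to -0.94, adjusted p = 0.0483). TNF-α replicate 1 alone gave -1.04 and the other libraries without it -1.70. UNC5C, a receptor that mediates repulsion by netrin, had 4.02, 3.95 and 3.68 FPKM in NC and 2.57, 1.38 and 1.44 FPKM after TNF-α (log2 -0.83, SE 0.19, adjusted p = 0.138). Here, too, each TNF-α library was lower than each NC library.

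NTN1, the classical netrin, had 3.76, 3.53 and 3.86 FPKM in NC and 5.60, 4.35 and 5.25 FPKM after TNF-α. The groups were separated, with TNF-α higher, without passing (log2 0.36, SE 0.13, adjusted p = 0.195). NEO1, which encodes neogenin, had 2.72, 2.25 and 2.73 FPKM in NC and 2.47, 1.23 and 1.46 FPKM after TNF-α (log2 -0.41, SE 0.19, adjusted p = 0.196). NTNG1, a GPI-anchored netrin-G, lay between 4.52 and 5.55 FPKM in all libraries, and the 95% interval of its log2 fold change was -0.36 to 0.25. DCC, the attractive netrin receptor, had at most 0.0252 FPKM in any library.

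Of the 8 ephrins 5 were tested and none passed in limma or in limma-voom, with 4 below an unadjusted p of 0.05, where 24.2% of all tested genes were. EFNA1, which is anchored by GPI and binds EphA receptors, had 3.32, 2.70 and 2.94 FPKM in NC and 4.62, 7.78 and 6.75 FPKM after TNF-α. All TNF-α libraries were higher, by 0.87 on the log2 scale (SE 0.19, adjusted p = 0.136). EFNB1, a transmembrane ephrin, had 4.62, 5.17 and 5.42 FPKM in NC and 6.80, 8.96 and 7.82 FPKM after TNF-α (log2 0.54, SE 0.14, adjusted p = 0.179). EFNA5 had 2.62, 2.98 and 2.90 FPKM in NC and 3.56, 4.82 and 4.43 FPKM after TNF-α (log2 0.45, SE 0.14, adjusted p = 0.195). In these 3 genes the groups did not overlap, and TNF-α replicate 1 was the lowest of its group in each. EFNB2, the ligand of EPHB4, had 20.2, 21.6 and 20.8 FPKM in NC and 17.2, 11.8 and 10.8 FPKM after TNF-α (log2 -0.64, SE 0.19, adjusted p = 0.195). It was the tested ephrin with all TNF-α libraries below NC. EFNA4 had 5.87, 7.92 and 6.21 FPKM in NC and 5.03, 21.6 and 16.2 FPKM after TNF-α. EFNB2 overlaps an antisense gene over 26.2% of its exon length, and EFNA4 shares 15% with another gene on the same strand.

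Of the 13 Eph receptors 5 were tested and none passed in limma or in limma-voom, with 1 (20.0%) below an unadjusted p of 0.05, beside 24.2% of all tested genes. That gene, EPHA3, a receptor of A-type ephrins studied in glioblastoma, had 21.6, 20.5 and 21.1 FPKM in NC and 13.2, 3.22 and 3.10 FPKM after TNF-α. All TNF-α libraries were lower, but with a wide spread among them, and the log2 fold change was -1.82 (SE 0.48, adjusted p = 0.184). EPHA5 had 2.52, 2.43 and 2.63 FPKM in NC and 2.38, 0.412 and 0.934 FPKM after TNF-α (log2 -0.75, SE 0.31, adjusted p = 0.195). EPHA4 had 2.47, 2.24 and 2.08 FPKM in NC and 2.44, 0.833 and 0.867 FPKM after TNF-α (log2 -0.52, SE 0.26, adjusted p = 0.201). In these 2 receptors TNF-α replicate 1 was at or close to the NC level. EPHB4, the receptor of EFNB2, had 28.7, 27.7 and 30.5 FPKM in NC and 23.9, 27.2 and 28.1 FPKM after TNF-α, and the groups overlapped (95% interval of the log2 fold change -0.45 to 0.19). EPHB2 lay between 6.99 and 8.41 FPKM in all libraries.

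Across families, the median log2 fold change of the tested genes was 0.54 for ephrins, -0.24 for semaphorins, -0.24 for plexins and neuropilins, -0.41 for netrins and their receptors, -0.46 for SLIT and ROBO genes and -0.52 for Eph receptors, beside 0.04 for all tested genes. With TPM the median of all genes was -0.42, and the ephrin and Eph receptor medians differed from it by 0.53 and -0.70. After correction for GC content and length the family medians were closer to the median of all genes, at 0.27 for ephrins, -0.32 for Eph receptors, -0.25 for netrins and their receptors, -0.14 for plexins and neuropilins and -0.09 for SLIT and ROBO genes, except that of semaphorins, at -0.29. The sign of these medians relative to all genes was kept under every scaling run except in plexins and neuropilins, whose median was 0.16 after correction for gene length. Ligands as a whole had a median of -0.22 (20 genes) and receptors of -0.29 (19 genes). The guidance genes took 0.404% to 0.414% of the reads of an NC library, and 0.480%, 0.221% and 0.250% in TNF-α replicates 1 to 3.

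Several guidance genes lay on opposite sides of the NC group in TNF-α replicate 1 and in replicates 2 and 3. NRP1, NRP2, PLXNA2, ROBO1, SEMA3C and SLIT2 were above all NC libraries in replicate 1 and below them in replicates 2 and 3, which is 15.4% of the tested guidance genes beside 12.1% of all tested genes. EFNA4 and ROBO3 showed the opposite split, 5.13% beside 15.2%. EPHA4 and NEO1 lay within NC in replicate 1 and below it in replicates 2 and 3 (5.13%, beside 13.3%), and 0 guidance genes lay within NC in replicate 1 and above it in the others (beside 16.1%). The remaining 8 genes overlapped NC in other ways (20.5%, beside 13.1%). The share of guidance genes in the first split was thus close to that of all genes. With TNF-α replicate 1 alone against the NC group, 14 guidance genes passed beside 6.03% of all tested genes, 8 of them higher and 6 lower. In that comparison the single TNF-α library is assumed to vary as the NC libraries do. SLIT2 (0.65), ROBO1 (0.52), NRP2 (0.47) and SEMA3C (0.40) had positive log2 differences there, opposite to their fold changes over all libraries.

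**Figure D4:**
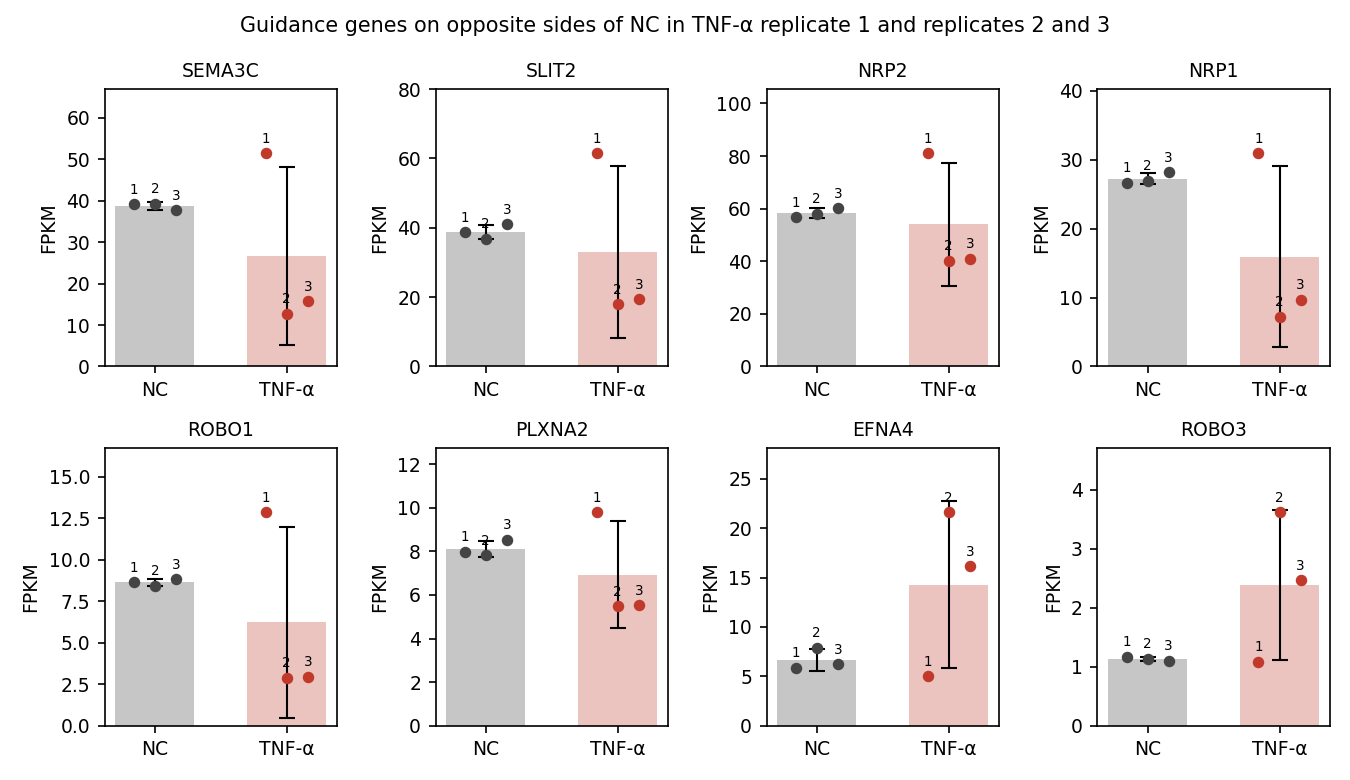
FPKM of the 8 guidance genes for which TNF-α replicate 1 and TNF-α replicates 2 and 3 lie on opposite sides of the NC libraries, with numbered points for libraries, bars for means and error bars for the SD (n = 3 per group). For SLIT2, replicate 1 had 61.6 FPKM and replicates 2 and 3 had 17.9 and 19.4 FPKM, around an NC mean of 38.8 FPKM.

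Guidance genes were longer than the other tested genes, and length and GC content moved with the values of TNF-α replicates 2 and 3. Their median length was 7.26 kb against 4.64 kb for all tested genes, and 46.2% were over 8 kb against 19.5%. Their median GC content was 54.2% against 47.9%. The 39 tested genes share these libraries and are not replicates. Across them, Pearson's r between the log2 ratio to the NC mean and GC content was 0.09, 0.64 and 0.65 in TNF-α replicates 1 to 3. With log2 gene length r was 0.05, -0.47 and -0.44. Over all tested genes r with GC content was -0.07, 0.43 and 0.41, and with log2 gene length 0.001, -0.27 and -0.27. The 20 guidance genes at or under the median GC content had a median log2 fold change of -0.58 and the 19 above it of 0.31, beside -0.10 and 0.42 for all tested genes divided at the same value. In TNF-α replicate 1 these medians of the guidance genes were -0.04 and -0.01. The part of GC content and length in each result was not tested gene by gene. After correction for both, NTN4 and ROBO4 remained past the threshold, SEMA6B passed as lower, and SEMA7A (log2 1.01, adjusted p = 0.0658) and SEMA4B (log2 0.63, adjusted p = 0.0944) did not pass. After correction for length alone SEMA7A (log2 1.31) and SEMA4B (log2 0.997) passed, while NTN4, ROBO4 and SEMA6B did not. None of these genes thus passed in both corrected fits.

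**Figure D5:**
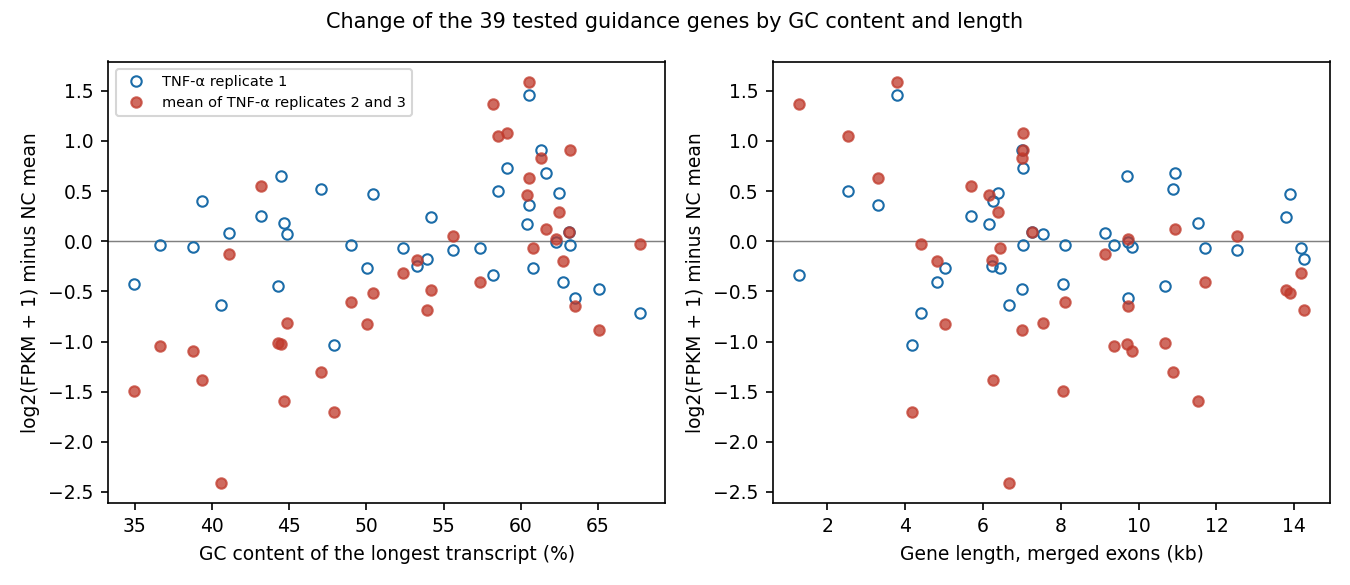
Each tested guidance gene (39) is drawn with its log2(FPKM + 1) minus the NC mean against GC content (left, %) and gene length (right, kb), with open points for TNF-α replicate 1 and filled points for the mean of replicates 2 and 3. Filled points rise with GC content (r of 0.64 and 0.65 in the single libraries), while open points show little relation to it (r of 0.09).

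Of 66 genes that act beside or downstream of the guidance receptors, such as kinases, adaptors, collapsin response mediators and co-receptors, 53 were tested. RGMB alone passed, which is 1.89% beside 1.01% of all tested genes. RGMB, a ligand of neogenin and co-receptor for bone morphogenetic proteins, had 9.67, 9.48 and 10.1 FPKM in NC and 19.7, 23.2 and 20.1 FPKM after TNF-α. All TNF-α libraries were about alike and above NC, and the log2 fold change was 1.03 (SE 0.13, adjusted p = 0.0251). It was 0.95 with TNF-α replicate 1 alone and 1.07 without it, and with another library left out it ran from 0.96 to 1.06 with adjusted p from 0.0992 to 0.242. CRMP1, a collapsin response mediator in semaphorin signalling, had 3.27, 2.86 and 3.68 FPKM in NC and 6.12, 5.87 and 5.38 FPKM after TNF-α (log2 0.67, SE 0.13, adjusted p = 0.0968). The groups did not overlap in either RGMB or CRMP1. At an unadjusted p under 0.05 there were 13 of these genes, 24.5%, close to the 24.2% of all tested genes. Of these 6 were higher and 7 lower after TNF-α. Over all 53 tested genes of this list the median log2 fold change was -0.23. The median was -0.03 after correction for gene length.

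A total of 32 guidance genes were not tested. EPHA8, EPHA10, EPHB6 and UNC5A had no read in any library, and EPHA7 had a single read in TNF-α replicate 2. The other 27 had reads but too few libraries at 1 FPKM, and the highest of them by NC mean were UNC5D and EPHB3, both at 0.84 FPKM, and SEMA3B at 0.77 FPKM. UNC5D had 0.806, 0.767 and 0.958 FPKM in NC and 0.665, 0.200 and 0.381 FPKM after TNF-α. EFNA3 had 0.290 to 0.527 FPKM in NC and 0.440 to 1.01 FPKM after TNF-α, and 44.7% of its exon length is shared with another gene on the same strand. The filter left these genes out, so a difference in them was not tested.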

How the data were processed

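U251 cells were profiled by RNA-seq in 6 libraries, 3 per group, assigned by sample title. Total RNA was taken up in TRIzol and poly(A) RNA was sequenced by a service company. The authors deposited expression as FPKM, not pooled and not log-transformed, with gene lengths. The submitters' processing notes name HISAT2 2.0.5, StringTie 1.3.3b, featureCounts 1.5.0, DESeq2, edgeR and GATK 3.7 without giving a role for each, and the use of strand is not given in the sources used here. All 58735 genes matched GENCODE release 29 on GRCh38 in identifier, name, position and length. Another 6 columns match no sample described here and were not used.

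Whole reads were recovered from FPKM and gene length (100% of values whole within 0.1 read), giving 31992167 to 37897044 reads in genes per library. The library size behind the deposited FPKM was 0.925 to 0.959 times these reads in NC and TNF-α replicate 1. In TNF-α replicates 2 and 3 it was 0.693 and 0.759 times the reads. Levels in FPKM, and their likeness between libraries, therefore rest on this scaling. Read counts carry counting error, and SEs and 95% intervals of fold changes are from limma and carry the spread between libraries. Expression was tested as log2(FPKM + 1) with limma 3.58.1 in R 4.3.3 (eBayes with trend, two-sided) over 12136 genes with at least 1 FPKM in at least 3 libraries, with Benjamini-Hochberg adjustment over all of them and a threshold of 0.05. Fold changes on this scale understate the change of low genes, and folds written as "-fold" are ratios of mean FPKM. The scripts were tested on simulated data with the same spread in all libraries and no shift by length or GC content. That test thus gives no error rate for the reported comparison. Python 3.11.15 and matplotlib 3.10.9 were used for tables and plots.

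Genes named in full were those past the threshold, the 4 with the smallest p in each family, and the 2 with the highest NC mean in each family, and of the downstream genes those past the threshold or else with the 3 smallest p. Genes outside this rule were named by ranges or after their values were seen, and 1 downstream gene is not reported here. The members, gene lists and rules were chosen with earlier results of these data known. The alternatives were other pseudocounts, filters, scalings, corrections for length and GC content (natural splines with 5 degrees of freedom), eBayes options, limma-voom on recovered reads, the replicate block and leaving out libraries.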

Additional observations from a re-analysis of the deposited data

How the results depend on the processing

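The number of guidance genes past the threshold was 4 of 39. It was 3 with a pseudocount of 0.5, a filter of 0.5 FPKM, GC content and length correction, the robust option or limma-voom, and 4 with quantile normalization, where PLXND1 replaced SEMA4B. It was 2 with a pseudocount of 0.1, a mean of at least 1 FPKM, median centring, length correction or no trend. It was 1 without a filter (67 genes tested), and 0 with TPM, which gave a median of -0.42 over all genes. Of all tested genes 0.183% passed without a filter, 0.478% with TPM and 0.798% to 2.04% in the other fits named so far. Leaving out each library in turn gave 0 to 30 guidance genes. It was 30 without TNF-α replicate 1 (76.9%, beside 79.4% of all tested genes). Without any other library it was 0, beside 0.0824% to 0.346% of all tested genes. For the downstream genes the number was 1 in the reported fit, 0 with TPM, 0 to 44 with each library left out (44 without TNF-α replicate 1, 0 without any other library) and 6 with TNF-α replicates 2 and 3 left out. In fits that leave out a library fewer samples carry the spread, and the cause of the other differences was not tested.

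The correlation of deviations from the group means between NC and TNF-α libraries was -0.01, -0.18 and 0.12 for replicates 1, 2 and 3. Between libraries of unequal number it lay between -0.16 and 0.18, so the replicate numbers gave no sign of pairing. With 3 libraries per group this check could not exclude pairing. With the replicate block 0 guidance genes and 0 downstream genes passed, and 0.198% of all tested genes did.

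Of 693 values (33 named genes under 21 alternatives) 22 had the opposite sign, and 19 genes kept their sign throughout, SEMA7A, SEMA4B, ROBO4, NTN4 and RGMB among them. SEMA7A passed under 13 of the 21 alternatives (log2 1.01 to 1.64), RGMB under 14, SEMA4B under 10, ROBO4 under 8 and NTN4 under 4. With TNF-α replicates 2 and 3 left out the reversed values were -0.34 for EFNA4, 0.077 for EPHA4, 0.18 for NRP1, 0.47 for NRP2, 0.085 for NTNG1, 0.52 for ROBO1, -0.034 for ROBO3, 0.40 for SEMA3C and 0.65 for SLIT2. GC content and length correction gave -0.049 for EFNB1, 0.17 for NRP2, 0.34 for NTNG1 and -0.14 for PLXNB2, and length correction 0.22 for NRP2, 0.20 for NTNG1 and 0.052 for PLXNA3. TPM gave -0.056 for NTN1, -0.41 for PLXNB2 and -0.095 for SEMA4C, quantile normalization 0.018 for NTNG1 and -0.34 for PLXNB2, and leaving out each library in turn gave -0.12 to 0.0019 for NTNG1, the latter without TNF-α replicate 3. The fewest reads of a tested guidance gene were those of SEMA3D, with 33 and 46 reads in TNF-α replicates 2 and 3.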
